A study of Mus musculus with 30 samples.

Results

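The genes described here are the 9 DNA methylation and demethylation enzymes and cofactors of the mouse that were chosen by symbol: Dnmt3a, Dnmt3b, Dnmt3l, Dnmt1, Uhrf1, Tet1, Tet2, Tet3 and Tdg. All 9 were found by name among the 12428 genes of the deposited expression table, and all 9 passed the filter on low values that left 12414 genes for testing. The 30 libraries, 10 groups of 3, come from mouse embryonic stem cells (C57BL/6J x 129) in naive culture, and tags near the 3' end of transcripts were sequenced. Every line lacked Kmt2c, which encodes an enhancer-associated histone methyltransferase. The Kmt2c-KO line carried, as its label spells it, Kmtd fl/fl alleles and GRHL2-ERT, and was given ethanol (EtOH) or tamoxifen (Tam) for 8 h or 16 h. The double-KO line (Kmt2cKO; Kmt2dKO) also lacked the related methyltransferase gene Kmt2d, carried GRHL2-ERT and had the same 4 treatments. Kmt2c-KO cells with Kmtd fl/fl alleles and without GRHL2-ERT were given tamoxifen for 8 h or 16 h. GRHL2-ERT is a fusion of the epithelial transcription factor GRHL2 that tamoxifen brings into the nucleus. Per the series design, the GRHL2-ERT lines were selected clones, so loss of Kmt2d and the choice of clone cannot be told apart. The labels do not say that replicates were separate cultures, so p-values measure only the spread between these libraries, and they name no preparation batch, so time and any batch of preparation cannot be told apart.

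DNMT3A and DNMT3B place methyl groups on unmethylated CpG sites, and DNMT3L is a catalytically inactive partner that stimulates both. UHRF1 recognises half-methylated DNA behind the replication fork and recruits DNMT1, which copies the pattern onto the new strand. The TET dioxygenases oxidise methylated cytosine, and TDG excises the later oxidation products so that base excision repair can restore an unmodified cytosine. Embryonic stem cells kept with a MEK inhibitor and a GSK3 inhibitor, as these were, are known for low DNA methylation, and Tet1 and Tet2 are the TET genes known from them, whereas Tet3 is best known from the oocyte and later tissues. DNA methylation itself was not analysed here.

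The genes lie on 7 chromosomes. In the mm10 build with GENCODE M21 genes, Dnmt3a spans chr12:3806007-3914443, Dnmt3b chr2:153649450-153687730, Dnmt3l chr10:78041947-78063622 and Uhrf1 chr17:56303321-56323486, all on the plus strand. Dnmt1 spans chr9:20907209-20959888, Tet1 chr10:62804570-62908996, Tet2 chr3:133463679-133545139 and Tet3 chr6:83362373-83459084, all on the minus strand. Tdg spans chr10:82629828-82650799 on the plus strand. The last 300 bases of Tdg matched the transcripts Gm5597 and Gm9855 over all 300 bases without a difference and Tdg-ps at 99.7% identity, and the opposite-strand gene Glt8d2 covers its 3' end. Whether the counting used strand was not given in the sources used here, so Tdg values may hold reads of these copies and are uncertain. Dnmt3a had 1 partial copy, Dnmt3a-ps1, at 91.4% identity over 105 bases. The start of Dnmt3l overlaps the opposite-strand gene Aire, away from the 3' end where the tags lie.

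Dnmt3l, Tet1 and Tet2 carried the largest differences between the lines at 8 h in ethanol apart from the low Tet3, and their promoters also differed in CpG content, so the windows around their starts are shown. RefSeq (GRCm38.p6) gave 16 start windows for the 9 genes, of 32851 in all, each running from 250 bases before to 50 after a start, and 3' tags do not show which start was used. Capitals mark CpG dinucleotides, and each window reads 5′ to 3′ on the gene's own strand. The Dnmt3l windows are chr10:78042037-78042336, chr10:78049592-78049891 and chr10:78055085-78055384 (plus strand), the Tet1 window is chr10:62887275-62887574 and the Tet2 window chr3:133544341-133544640 (both minus strand).
Dnmt3l, first start: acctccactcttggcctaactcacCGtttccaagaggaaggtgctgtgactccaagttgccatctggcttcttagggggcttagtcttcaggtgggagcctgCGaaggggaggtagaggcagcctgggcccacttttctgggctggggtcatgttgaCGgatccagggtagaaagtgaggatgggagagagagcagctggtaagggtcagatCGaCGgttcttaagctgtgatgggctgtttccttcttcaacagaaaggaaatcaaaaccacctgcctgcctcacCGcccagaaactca
Dnmt3l, second start: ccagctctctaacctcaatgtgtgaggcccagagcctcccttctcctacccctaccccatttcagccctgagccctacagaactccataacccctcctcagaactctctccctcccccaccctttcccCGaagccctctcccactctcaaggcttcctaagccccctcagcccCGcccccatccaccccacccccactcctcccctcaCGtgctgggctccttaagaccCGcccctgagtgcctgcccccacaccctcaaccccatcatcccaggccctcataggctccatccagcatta
Dnmt3l, last start: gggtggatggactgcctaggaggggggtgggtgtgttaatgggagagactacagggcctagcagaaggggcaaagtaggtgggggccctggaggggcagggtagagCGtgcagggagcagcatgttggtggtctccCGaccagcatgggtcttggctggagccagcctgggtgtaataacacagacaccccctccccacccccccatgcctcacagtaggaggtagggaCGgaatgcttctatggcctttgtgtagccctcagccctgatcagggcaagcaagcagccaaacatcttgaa
Tet1: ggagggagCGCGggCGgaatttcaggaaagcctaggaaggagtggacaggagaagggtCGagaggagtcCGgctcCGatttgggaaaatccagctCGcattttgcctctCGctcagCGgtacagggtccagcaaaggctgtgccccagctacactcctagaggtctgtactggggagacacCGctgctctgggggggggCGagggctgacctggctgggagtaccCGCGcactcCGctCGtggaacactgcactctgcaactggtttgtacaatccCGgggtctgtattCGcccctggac
Tet2: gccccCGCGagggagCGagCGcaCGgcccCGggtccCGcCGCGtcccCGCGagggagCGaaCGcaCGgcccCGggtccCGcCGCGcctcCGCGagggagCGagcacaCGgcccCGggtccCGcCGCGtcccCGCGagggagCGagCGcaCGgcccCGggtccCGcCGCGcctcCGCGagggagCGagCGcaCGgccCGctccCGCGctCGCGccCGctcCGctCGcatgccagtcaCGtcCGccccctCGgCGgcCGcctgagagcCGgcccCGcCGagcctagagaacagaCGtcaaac

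The Tet2 window held 57 CpG sites, a number reached by 0.152% of all promoter windows. The 3 Dnmt3l windows held 6, 4 and 3, below the median of 7 over all windows, and the Tet1 window held 17. Among the others, the Dnmt3a windows held 46, 47 and 18, Dnmt3b 30, Dnmt1 2, 12 and 33, Uhrf1 12 and 33, Tet3 22 and Tdg 26. The consensus of grainyhead-like factors such as GRHL2, AACCGGTT, was in 0.146% of all windows and in none of these 16, which says only that these letters were not in these windows. Its looser forms AACCNGTT (2.09% of windows) and AACNNGTT (4.20%), each of which contains the stricter one, were searched on both strands. They matched once, in the Tet1 window, as AACTGGTT 9 bases after the start, which reads as the looser form on the other strand. The E-box CACGTG, in 7.15% of windows, was in 1 Dnmt3a window, in that of the second Dnmt3l start and in that of Tdg. A match is a description of letters, not a binding site.

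The depth of the libraries was 8.83 to 22.03 in units of 1000000 reads (median 16.2), estimated from the steps between low values, and 3 reads corresponded to 0.136 to 0.340 counts per 1000000 reads (CPM). The 3 tamoxifen 8 h libraries of the double-KO line stood apart: their mean correlations with the other libraries of their group were 0.965, 0.938 and 0.952, against a median of 0.987 over all libraries. They make up that whole group, so no result on it can be given without all 3. Replicate 2 had the lowest correlation and the lowest depth of all libraries, 8.83 against 16.33 and 18.40 for replicates 1 and 3. Its share of the ribosomal RNA precursor tag Rn45s was 7.37% of reads, against 3.76 and 3.89%. The mean correlations of replicates 1 and 3 include that with replicate 2. Fits that left out each library alone were also run. The Grhl2 tags, which include the transgene, were 178 ± 28.3 CPM in the Kmt2c-KO line and 41.2 ± 10.1 in the double-KO line at 8 h in ethanol (SD, n = 3), 77.6 ± 11.1 and 52.5 ± 7.89 at 16 h, and at most 3.55 without the transgene. Kmt2c and Kmt2d tags were present in all groups, and where the deletions lie relative to the 3' end is not given, so these tags check neither knockout. The 10 naive stem cell markers summed to 5212 to 6073 CPM in the 12 double-KO libraries and to 8292 to 11900 in the 18 Kmt2c-KO libraries, with no overlap. Single markers went both ways by the test described below. At 8 h in ethanol 3 were called higher in the double-KO line (Nanog, Klf4 and Tbx3) and 4 lower (Sox2, Esrrb, Dppa5a and Klf2). The shares of all tested genes were 37.6% and 11.9%. At 16 h 1 was called higher (Klf4) and the same 4 lower, against 40.0% and 9.96% of all genes. The 5 listed formative markers, of which Dnmt3b is 1, summed to 85.5 to 100.8 CPM in the Kmt2c-KO line and 46.3 to 62.5 in the double-KO line at 8 h in ethanol. Without Dnmt3b these sums were 29.3 to 38.9 and 25.6 to 37.2, which overlap, and 14.5 to 15.0 and 24.3 to 25.7 at 16 h. Of these markers Lef1 was called lower in the double-KO line at both times. Pou3f1 was called higher at 8 h, and Otx2 and Sall2 at 16 h. In the double-KO line the 4 listed primitive endoderm markers summed to 22.4 to 28.2 CPM at 8 h and 29.3 to 40.8 at 16 h in ethanol, against 2.51 to 4.64 and 1.27 to 2.62 in the Kmt2c-KO line. The 3 listed feeder fibroblast markers stayed at 0 to 5.64 CPM in all libraries, and were 3.44 to 4.26 against 0.551 to 2.44 between the lines at 8 h and 3.24 to 5.64 against 0.575 to 0.888 at 16 h. The 3 listed trophoblast markers in ethanol summed to 60.3 to 75.2 CPM in the double-KO line against 78.8 to 113.6 at 8 h. At 16 h the order was reversed, at 46.4 to 52.1 against 35.2 to 42.3. Gata3 was called higher and Eomes lower in the double-KO line at both times, and Tfap2c lower at 8 h.

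**Figure D1:**
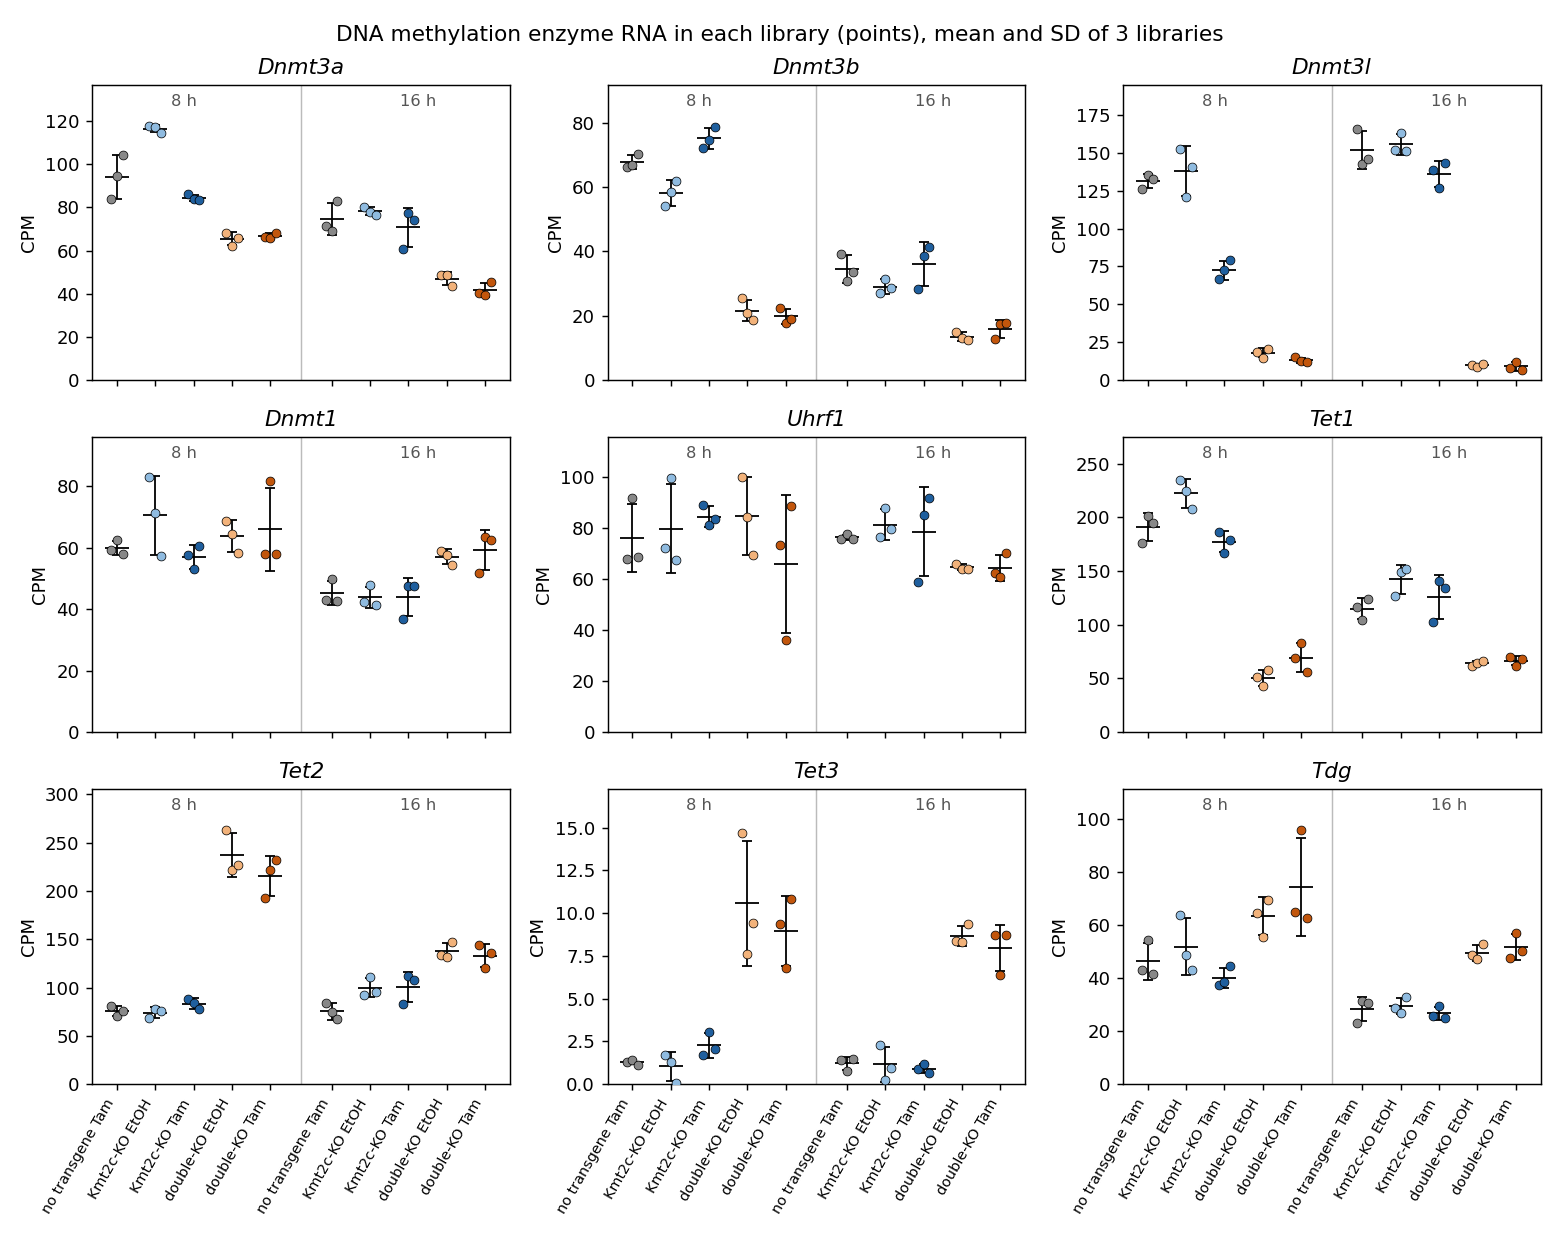
Tags of each of the 9 genes in counts per 1000000 reads (CPM, linear axis from 0) in the 30 libraries, 8 h left and 16 h right of the grey line; points are libraries, and bars are the mean and SD of 3. The double-KO libraries (orange) lie below all Kmt2c-KO libraries of the same time for Dnmt3a, Dnmt3b, Dnmt3l and Tet1 and above them for Tet2 and Tet3.

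The comparison between the double-KO and the Kmt2c-KO line in ethanol asks which of these genes differ between these lines without tamoxifen. The lines differ in Kmt2d, in clone and in the level of Grhl2 tags, which cannot be told apart here. In ethanol, RNA of the de novo enzymes Dnmt3a and Dnmt3b and of their cofactor Dnmt3l was lower in the double-KO line at both times, by most for Dnmt3l and by least for Dnmt3a. The TET genes split, with Tet1 lower and Tet2 and Tet3 higher. Of the maintenance pair, Dnmt1 and Uhrf1, neither passed the test at 8 h, and Dnmt1 did at 16 h. By limma on log2(CPM + 1), with p-values adjusted over all 12414 genes and called under 0.05, 2 of the 9 genes were higher and 4 lower at 8 h, where 37.6% of all tested genes were called higher and 11.9% lower. At 16 h, 4 were higher and 4 lower, against 40.0% and 9.96% of all genes. The median of all genes was itself shifted by 0.31 at 8 h and 0.35 at 16 h (log2, double-KO over Kmt2c-KO), and with DESeq2-style median-of-ratios scaling, which removes most of this shift, the counts were 2 higher and 5 lower at 8 h and 1 higher and 5 lower at 16 h. Over all genes, 4664 of the 6136 called genes were higher at 8 h and 4967 of 6203 at 16 h, against 2592 of 5236 and 2576 of 5150 with that scaling. Values for a gene are given on the CPM scale and, where the scaling changes a call, also on the other. The tested differences are of log2(CPM + 1), which understates the change of low genes.

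Dnmt3l showed the largest decrease of the 9. At 8 h in ethanol it was at 153, 121 and 141 CPM in the Kmt2c-KO line and at 18.6, 14.8 and 20.6 in the double-KO line. At 16 h the values were 152, 163 and 151 against 9.98, 8.6 and 10.6. The groups were far apart at both times, 7.68-fold at 8 h and 16.0-fold at 16 h in mean CPM. The difference was -2.88 ± 0.14 (SE) at 8 h and -3.87 ± 0.14 at 16 h on the log2 scale, with limma adjusted p of 2.8e-15 and 3.2e-18. It was the 35th largest decrease of all tested genes at 8 h and the 9th at 16 h. In bulk RNA, fewer cells that express a gene and less RNA per cell cannot be told apart.

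Dnmt3b, the writer best known for its rise when naive cells leave that state, was at 54.0, 58.3 and 62.0 CPM in the Kmt2c-KO line at 8 h in ethanol and at 25.4, 20.7 and 18.7 in the double-KO line. At 16 h it was at 26.9, 31.4 and 28.6 against 14.9, 13.1 and 12.5. No library of one line reached the other, and the log2 differences were -1.39 ± 0.14 and -1.05 ± 0.14 (limma adjusted p 9.1e-09 and 1.0e-06). Dnmt3a was at 118, 117 and 115 CPM against 68.2, 62.3 and 65.8 at 8 h, and at 80.2, 78.0 and 76.4 against 48.9, 48.6 and 43.4 at 16 h. Its groups were also separate and its difference the smallest of the 3, -0.82 ± 0.10 and -0.73 ± 0.10 (limma adjusted p 1.8e-07 and 1.2e-06). Because Dnmt3l differed more than its partner, the ratio of Dnmt3l to Dnmt3a tags was 1.19 ± 0.14 in the Kmt2c-KO line and 0.274 ± 0.037 in the double-KO line at 8 h, and 1.99 ± 0.10 and 0.208 ± 0.034 at 16 h (SD, n = 3). A ratio of tags compares libraries and was not shown to equal a ratio of transcript numbers.

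Tet1, whose product carries a CXXC DNA-binding domain that TET2 lacks, was at 234, 225 and 208 CPM in the Kmt2c-KO line and at 50.9, 43.0 and 58.1 in the double-KO line at 8 h in ethanol. At 16 h it was at 126, 149 and 152 against 61.9, 64.7 and 66.0. The lines were 4.39-fold apart at 8 h and 2.22-fold at 16 h, with log2 differences of -2.12 ± 0.13 and -1.13 ± 0.13 (limma adjusted p 1.7e-13 and 4.3e-08). Tet2 went the other way: 68.0, 78.2 and 76.0 CPM against 263, 222 and 226 at 8 h, and 92.7, 111 and 95.7 against 134, 132 and 147 at 16 h. It was higher by 1.66 ± 0.12 on the log2 scale at 8 h (limma adjusted p 3.6e-12). At 16 h the difference was 0.46 ± 0.12 (adjusted p 0.0016), close to the shift of all genes, and 0.10 (adjusted p 0.52) with median-of-ratios scaling, so the call at 16 h rests on the scaling.

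The 2 opposite differences turned the order of Tet1 and Tet2 tags around. Tet1 gave 3.02 ± 0.38 tags per Tet2 tag in the Kmt2c-KO line at 8 h in ethanol and 0.214 ± 0.036 in the double-KO line (SD, n = 3). At 16 h the ratio was 1.43 ± 0.13 against 0.466 ± 0.022. In all 18 libraries with Kmtd fl/fl alleles it was above 1, at 1.24 or more, and in all 12 double-KO libraries below 1, at 0.512 or less; this ratio does not depend on the scaling of libraries.

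**Figure D2:**
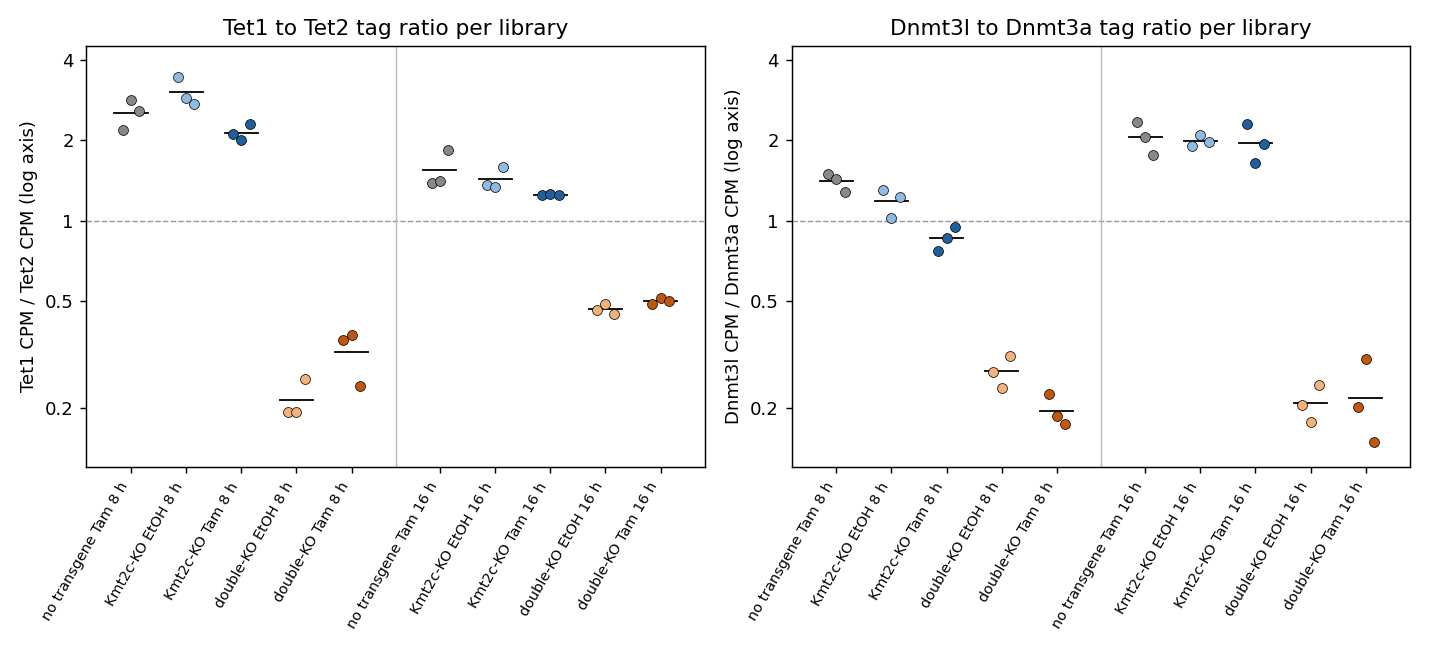
Ratio of Tet1 to Tet2 tags (left) and of Dnmt3l to Dnmt3a tags (right) in each of the 30 libraries on a log axis; points are libraries, short bars are means of 3, and the dashed line marks equal tags. For Tet1 and Tet2 the 18 Kmt2c-KO libraries lie at 1.24 or above and the 12 double-KO libraries at 0.512 or below.

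Tet3 was near the detection limit in the Kmt2c-KO line. At 8 h in ethanol it was at 1.73, 1.29 and 0.0811 CPM, the last of which is 1 read, and in the double-KO line at 14.7, 7.62 and 9.41. At 16 h it was at 2.28, 0.238 and 0.935 CPM against 8.37, 8.30 and 9.34. All double-KO libraries were above all Kmt2c-KO libraries, the latter spanning 0.0811 to 3.05 CPM (1 to 46 reads) over both times and treatments. The log2 differences were 2.57 ± 0.31 and 2.28 ± 0.31 (limma adjusted p 1.2e-07 and 7.1e-07), the widest errors among the 9 genes.

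The remaining genes depended on time or on scaling. Dnmt1 was at 82.9, 71.3 and 57.2 CPM against 68.5, 64.3 and 58.3 at 8 h, groups that overlap, with a log2 difference of -0.13 ± 0.14 (limma adjusted p 0.44) that became -0.44 (adjusted p 0.013) with median-of-ratios scaling. At 16 h it was at 42.4, 47.8 and 41.4 against 58.9, 57.7 and 54.3, with no overlap. This difference of 0.37 ± 0.14 (limma adjusted p 0.026) was 0.01 (adjusted p 0.96) with median-of-ratios scaling. It also lost its call without ethanol 16 h replicate 1 or 3 of the Kmt2c-KO line or replicate 1 or 2 of the double-KO line (adjusted p 0.072, 0.087, 0.073 and 0.064).

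Uhrf1 was at 72.0, 99.6 and 67.4 CPM against 100, 84.3 and 69.4 at 8 h, with overlap, and at 76.3, 88.0 and 79.4 against 65.8, 63.7 and 63.9 at 16 h, with none. At 8 h its log2 difference was 0.09 ± 0.21 (limma adjusted p 0.74), and -0.22 with median-of-ratios scaling, not called on either scale. Its difference of -0.33 ± 0.21 at 16 h was not called (limma adjusted p 0.21), whereas it was called with median-of-ratios scaling (-0.69, adjusted p 0.0025), with only those libraries (adjusted p 0.00027) and with array weights (adjusted p 0.0085). Tdg was at 63.8, 48.7 and 43.0 CPM against 64.7, 55.6 and 69.6 at 8 h, with overlap, and at 28.8, 26.8 and 32.9 against 48.5, 47.2 and 52.9 at 16 h, without. At 16 h the log2 difference was 0.73 ± 0.16 (limma adjusted p 0.00037), and 0.37 (adjusted p 0.079) with the other scaling. At 8 h it was 0.30 ± 0.16 (adjusted p 0.12), -0.01 with that scaling, and 0.45 (adjusted p 0.031) without ethanol 8 h replicate 1 of the Kmt2c-KO line.

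The tamoxifen libraries of the same lines are a separate set and were compared after the ethanol values had been seen. At 8 h, 3 of the 9 genes were higher and 4 lower in the double-KO line (30.6% and 14.0% of all genes), and at 16 h 4 were higher and 4 lower (41.2% and 10.1%). The all-gene shift was 0.18 and 0.35 here. In these libraries Dnmt3l was lower by -2.40 ± 0.14 at 8 h and -3.82 ± 0.14 at 16 h, Dnmt3b by -1.88 ± 0.14 and -1.13 ± 0.14, and Tet1 by -1.36 ± 0.13 and -0.90 ± 0.13 (log2, limma adjusted p at most 1.6e-06). Tet3 was higher by 1.61 ± 0.31 and 2.23 ± 0.31, and Tet2 by 1.36 ± 0.12 and 0.41 ± 0.12 (limma adjusted p at most 0.0046). Tdg was higher by 0.85 ± 0.16 and 0.92 ± 0.16 (limma adjusted p 7.7e-05 and 2.1e-05), and by 0.65 and 0.55 with median-of-ratios scaling (adjusted p 0.0027 and 0.0098). It was called at both times in every alternative that was run, although its tags are uncertain. With median-of-ratios scaling Tet2 at 16 h was 0.02 (adjusted p 0.90), and Dnmt1, at 0.43 ± 0.14 by CPM, was 0.04 (adjusted p 0.83). Both also lost their calls without tamoxifen 16 h replicate 1 of the Kmt2c-KO line (adjusted p 0.065 and 0.097). Uhrf1 at 8 h was at -0.45 ± 0.21 (adjusted p 0.095), and at -0.70 (adjusted p 0.0076) without tamoxifen replicate 3 of the double-KO line. That fit kept replicate 2, the library of lowest depth, where Uhrf1 was at 36.0 CPM against 73.3 in replicate 1. With median-of-ratios scaling Uhrf1 was called at both times, at -0.65 each (adjusted p 0.0046 and 0.0042). Dnmt3a was lower by -0.33 ± 0.10 at 8 h, where the double-KO libraries stood apart, and by -0.75 ± 0.10 at 16 h (limma adjusted p 0.0086 and 7.2e-07). The 8 h call was lost when only the libraries of that comparison were fitted (adjusted p 0.11) and with array weights (0.30).

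**Figure D3:**
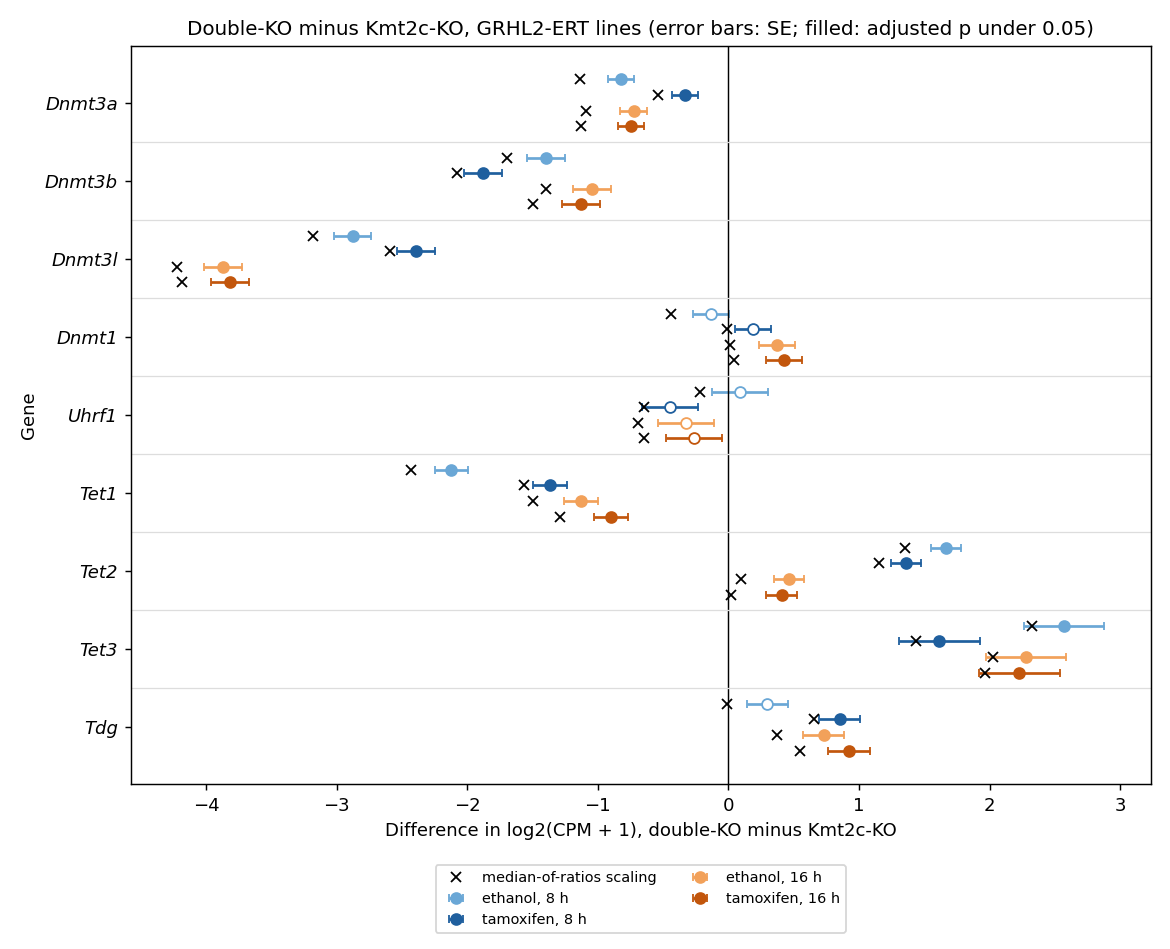
Differences between the double-KO and the Kmt2c-KO line (log2(CPM + 1), linear axis) for the 9 genes in ethanol and tamoxifen at 8 h and 16 h; circles are estimates with SE bars, filled where the limma adjusted p was under 0.05, and crosses are estimates with median-of-ratios scaling. Crosses lie to the left of circles throughout, and Tet2 at 16 h moves from 0.46 to 0.10 in ethanol.

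Genes that work with these enzymes were described by lists. In these comparisons 37.6% of all tested genes were called higher and 11.9% lower at 8 h, and 40.0% and 9.96% at 16 h. Of 8 listed partners of maintenance methylation, 1 was higher and 2 lower at 8 h in ethanol and 1 higher and 2 lower at 16 h (median log2 difference 0.05 and -0.03, against 0.31 and 0.35 over all genes), or 0 higher and 4 or 3 lower with median-of-ratios scaling. Dppa3, whose product keeps UHRF1 off DNA in naive cells and oocytes, was among the lower genes, at 50.2 to 64.6 CPM in the Kmt2c-KO line and 0.587 to 2.36 in the double-KO line at 8 h. Its log2 difference was -4.82 ± 0.23 at 8 h and -2.18 ± 0.23 at 16 h (limma adjusted p 4.7e-16 and 7.6e-09). Of 13 genes for de novo targeting and imprint protection, 1 was higher and 6 were lower at 8 h and 1 and 4 at 16 h (median -0.16 and -0.08), or 1 and 8 and then 1 and 10 with the other scaling. Dppa2 and Dppa4, which encode partner proteins that bind CpG-rich promoters, were lower by -1.29 ± 0.10 and -1.30 ± 0.13 at 8 h and by -1.72 ± 0.10 and -1.13 ± 0.13 at 16 h (limma adjusted p at most 5.7e-08).

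Of 15 TET partners and base excision genes, 5 were higher and 2 lower at 8 h and 6 and 1 at 16 h (median 0.10 and 0.06), or 4 and 4, and 4 and 6, with median-of-ratios scaling. The higher counts by CPM were near the shares of all genes, which were 37.6% higher and 11.9% lower at 8 h and 40.0% and 9.96% at 16 h. Neil3, a DNA glycosylase, was higher by 1.92 ± 0.28 and 1.70 ± 0.28, and Gadd45g, a stress-response gene linked to demethylation, by 1.13 ± 0.18 and 2.50 ± 0.18 (limma adjusted p at most 1.5e-05). Its relatives went the other way: Gadd45b was lower at 8 h by -0.73 ± 0.16 (limma adjusted p 0.00053) and Gadd45a at 16 h by -0.77 ± 0.27 (adjusted p 0.018). Of 7 methyl-CpG readers, 5 were higher and 0 lower at 8 h and 6 and 0 at 16 h (median 0.97 and 0.81). With median-of-ratios scaling 4 and 2 were higher and 0 lower. Zbtb4, a zinc finger reader, was higher by 1.27 ± 0.23 and 1.66 ± 0.23 (limma adjusted p 4.6e-05 and 8.1e-07). The sums of the naive, primitive endoderm, feeder and trophoblast markers given above also differed between the same lines, the last in opposite directions at 8 h and 16 h. Their part in these differences was not tested.

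Tamoxifen was compared with ethanol within each GRHL2-ERT line to ask how these genes respond to nuclear GRHL2. The response was small: at 8 h in the Kmt2c-KO line Dnmt3l and Dnmt3a fell, and the other 7 genes were not called. These 2 of 9 genes stand against 4.95% of all tested genes called at that time, 2.04% of them lower. Dnmt3l went from 153, 121 and 141 CPM in ethanol to 66.4, 72.6 and 79.0 in tamoxifen, with no overlap. Its change was -0.91 ± 0.14 on the log2 scale, 1.90-fold in mean CPM (limma adjusted p 0.00015), the 84th largest decrease of all genes. Dnmt3a went from 118, 117 and 115 CPM to 86.0, 83.8 and 83.3, a change of -0.46 ± 0.10 (limma adjusted p 0.0054). In the same comparison the ribosomal RNA precursor tag Rn45s, a sign of library composition, was lower by -0.73 ± 0.21 (limma adjusted p 0.039; 0.060 with median-of-ratios scaling), at 3.10 to 3.47% of reads in tamoxifen against 4.02 to 7.40% in ethanol. Of the 10 naive markers 0 were higher and 3 lower (Sox2, Zfp42 and Klf4). The part of either in the decrease of Dnmt3l and Dnmt3a was not tested.

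Cells without GRHL2-ERT in tamoxifen for 8 h served as a second reference, and this comparison uses the same tamoxifen libraries of the Kmt2c-KO GRHL2-ERT line. Dnmt3l was at 126, 135 and 133 CPM there, and it was lower with GRHL2-ERT by -0.85 ± 0.14 (limma adjusted p 0.00033), the 1 gene of the 9 called, against 4.07% of all genes called and 1.39% lower. Dnmt3a was at 84.0, 94.4 and 104 CPM without GRHL2-ERT, so its libraries overlapped those with GRHL2-ERT in tamoxifen, and the difference was -0.15 ± 0.10 (adjusted p 0.59). Rn45s, at 3.24 to 3.74% of reads without GRHL2-ERT, was likewise not called here (-0.10 ± 0.21, adjusted p 0.94). The decrease of Dnmt3a was thus called against ethanol and not called against tamoxifen-treated cells without the transgene. Tet1 in the Kmt2c-KO line was at 186, 167 and 179 CPM in tamoxifen against 234, 225 and 208 in ethanol, a change of -0.32 ± 0.13 that was not called (adjusted p 0.17) except when the double-KO tamoxifen 8 h libraries were left out of the fit (adjusted p 0.047). Dnmt3b was at 72.2, 74.6 and 78.6 CPM against 54.0, 58.3 and 62.0, a change of 0.37 ± 0.14 (adjusted p 0.16).

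At 16 h none of the 9 genes was called in the Kmt2c-KO line (limma, adjusted p 1.0 for each; 0.298% of all genes called, and 597 genes at an unadjusted p under 0.05). Dnmt3l was then at 139, 127 and 143 CPM in tamoxifen against 152, 163 and 151 in ethanol, just apart. The change at 16 h minus that at 8 h was 0.72 ± 0.20 for Dnmt3l (limma adjusted p 0.32), where 0.0644% of all genes were called and 789 had an unadjusted p under 0.05. It was called when only those 12 libraries were fitted (adjusted p 0.024) and with array weights (adjusted p 0.024). Against cells without GRHL2-ERT at 16 h none was called (0.975% of all genes, 1076 at an unadjusted p under 0.05). Tet2, at 82.6, 112 and 108 CPM against 84.0, 74.1 and 67.4, came closest at 0.41 ± 0.12 (limma adjusted p 0.11). It was called without tamoxifen 16 h replicate 1 of the GRHL2-ERT line (adjusted p 0.025), with array weights (0.00015) and when the libraries that stood apart were dropped (0.036).

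In the double-KO line none of the 9 genes was called in tamoxifen at 8 h (0.0967% of all genes called, 2520 at an unadjusted p under 0.05) or at 16 h (0.0403% and 519). Dnmt3l was at 14.9, 12.3 and 11.9 CPM in tamoxifen at 8 h against 18.6, 14.8 and 20.6 in ethanol, a change of -0.43 ± 0.14 (limma adjusted p 0.16). Tet1 was at 68.9, 82.6 and 55.9 CPM against 50.9, 43.0 and 58.1, a change of 0.43 ± 0.13 (adjusted p 0.14). Both pairs of groups overlapped. Uhrf1 varied most between tamoxifen libraries, at 73.3, 36.0 and 88.5 CPM. Without tamoxifen 8 h replicate 3, Tet1 was called at 0.58 (adjusted p 0.0046) and Uhrf1 at -0.69 (adjusted p 0.019). That fit kept replicate 2, the library of lowest depth, which held the highest Tet1 and the lowest Uhrf1 value of the group.

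The difference between the lines' responses at 8 h was called for Tet1, where tamoxifen went with lower values in the Kmt2c-KO line and higher ones in the double-KO line. Its size was 0.76 ± 0.18 on the log2 scale (limma adjusted p 0.032; 1 of 9 genes, against 1.43% of all genes), and 0.87 (adjusted p 0.021) with median-of-ratios scaling. The call was not stable: it was lost with array weights (adjusted p 0.65), with only those 12 libraries (0.41) and without any 1 of 7 libraries. These were ethanol replicate 1 of the Kmt2c-KO line (adjusted p 0.10), its tamoxifen replicates 1, 2 and 3 (0.060, 0.097 and 0.051), ethanol replicates 1 and 2 of the double-KO line (0.072 and 0.11) and its tamoxifen replicate 2 (0.064). With replicate as a block within line and time the adjusted p was 0.065. Dnmt3a, at 0.49 ± 0.14 (adjusted p 0.070), was called with median-of-ratios scaling (0.60, adjusted p 0.028). Without tamoxifen replicate 3 of the double-KO line Dnmt3a, Uhrf1 and Tdg were called as well (0.47, -0.79 and 0.67, adjusted p 0.026, 0.040 and 0.033). That fit kept tamoxifen replicate 2, the library of lowest depth. There Uhrf1 was at 36.0 CPM and Tdg at 95.7, against 73.3 and 65.0 in replicate 1. For Dnmt3l the difference between the lines was 0.48 ± 0.20 (adjusted p 0.15), so a weaker response in the double-KO line was not shown. At 16 h none of the 9 genes and none of all genes was called (315 at an unadjusted p under 0.05). The lines also differed in Grhl2 tags at 8 h, as given above, and the part of that difference was not tested.

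**Figure D4:**
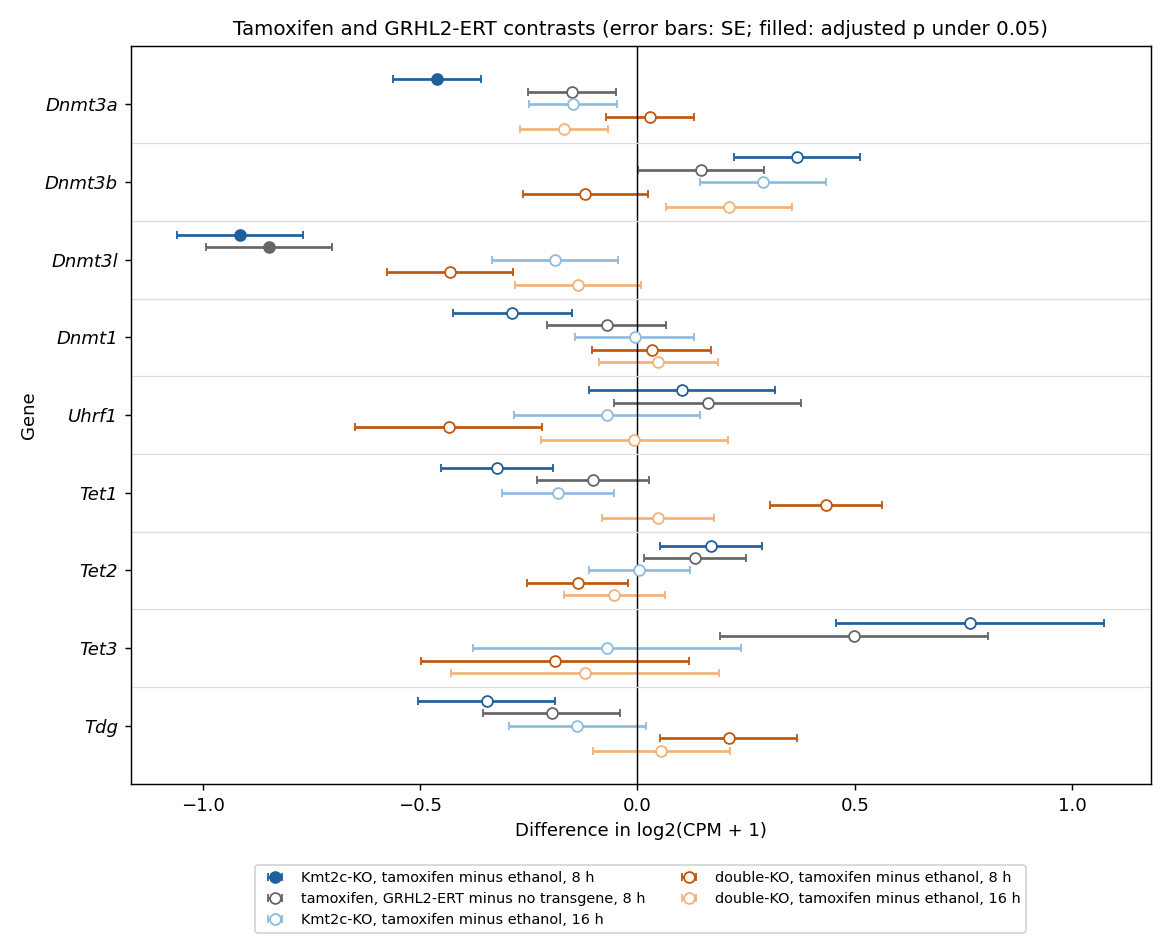
Tamoxifen minus ethanol in the Kmt2c-KO and double-KO GRHL2-ERT lines at 8 h and 16 h, and GRHL2-ERT minus no transgene in tamoxifen at 8 h, for the 9 genes (log2(CPM + 1), linear axis); circles are estimates with SE bars, filled where the limma adjusted p was under 0.05. Dnmt3l at -0.91 and -0.85 and Dnmt3a at -0.46, all in the Kmt2c-KO line at 8 h, are the filled circles.

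Between 8 h and 16 h of ethanol 5 of the 9 genes fell and 1 rose in the Kmt2c-KO line, where 27.5% of all tested genes were called lower and 17.5% higher. Dnmt3b fell by 0.98 ± 0.14 on the log2 scale, 2.00-fold in mean CPM, Tdg by 0.78 ± 0.16, Dnmt1 by 0.66 ± 0.14, Tet1 by 0.64 ± 0.13 and Dnmt3a by 0.57 ± 0.10 (limma adjusted p from 6.5e-06 to 0.00036). Tet2 rose by 0.42 ± 0.12 (limma adjusted p 0.0044). The median of all genes moved by -0.12, and the same 6 genes were called with median-of-ratios scaling. Dnmt3l, at 0.18 ± 0.14, was not called (adjusted p 0.33). Marker levels moved over the same interval: the formative markers without Dnmt3b summed to 29.3 to 38.9 CPM at 8 h and 14.5 to 15.0 at 16 h, with Otx2, Lef1 and Sall2 called lower. The 3 listed trophoblast markers summed to 78.8 to 113.6 and 35.2 to 42.3 CPM, with Gata3 and Tfap2c called lower and Eomes higher. The naive markers summed to 8292 to 9950 and 11060 to 11670, but single markers went both ways. Of these 10, 2 were called higher (Nanog and Zfp42) and 3 lower (Pou5f1, Sox2 and Klf2), with a median of -0.02. With median-of-ratios scaling 4 were higher and 1 lower. Rn45s fell by 1.22 ± 0.21 (limma adjusted p 6.0e-05), from 4.02 to 7.40% of reads to 2.11 to 2.61%. The part of these in the changes of the 9 genes was not tested.

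Cells without GRHL2-ERT in tamoxifen, a set of libraries not used in that comparison, gave 5 of 9 genes lower and 0 higher (25.7% and 10.9% of all genes; median of all genes -0.15). Dnmt3b was lower by -0.96 ± 0.14, Tet1 by -0.73 ± 0.13 and Tdg by -0.69 ± 0.16 (limma adjusted p 1.3e-05, 9.8e-05 and 0.0012). Dnmt1 and Dnmt3a, at -0.40 ± 0.14 and -0.33 ± 0.10 (limma adjusted p 0.024 and 0.011), were not called with median-of-ratios scaling (-0.23 and -0.16, both adjusted p 0.22). Dnmt3a also lost its call without replicate 3 at 8 h or replicate 2 at 16 h (adjusted p 0.078 and 0.061). Dnmt1 lost it without replicate 2 at 8 h or replicate 1 or 3 at 16 h (0.078, 0.073 and 0.080). Here too Otx2, Lef1 and Sall2 were called lower, the trophoblast markers summed to 87.5 to 106.9 CPM at 8 h and 30 to 34.4 at 16 h, and Rn45s was at -0.60 ± 0.21 (limma adjusted p 0.026; 0.16 with median-of-ratios scaling).

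In the double-KO line in ethanol 4 of 9 genes fell and 0 rose (12.5% and 8.72% of all genes). These were Dnmt3l by 0.82 ± 0.14, Tet2 by 0.78 ± 0.12, Dnmt3b by 0.63 ± 0.14 and Dnmt3a by 0.47 ± 0.10 (limma adjusted p from 4.8e-05 to 0.0030). Rn45s fell by 0.90 ± 0.21 (limma adjusted p 0.0036), and the formative markers without Dnmt3b summed to 25.6 to 37.2 CPM at 8 h and 24.3 to 25.7 at 16 h. Among these markers Pou3f1 was called lower and Otx2 higher, whereas Otx2 was called lower over time in both Kmt2c-KO comparisons. Tet1, at 0.35 ± 0.13 (limma adjusted p 0.055), was called with median-of-ratios scaling (0.41, adjusted p 0.037), without ethanol 8 h replicate 3 (0.45, adjusted p 0.036), with array weights (adjusted p 3.5e-05) and when the libraries that stood apart were dropped (adjusted p 0.014). Over all genes, 2177 of 5587 calls in the Kmt2c-KO line, 1352 of 4541 without the transgene and 1083 of 2639 in the double-KO line were higher at 16 h. With median-of-ratios scaling these were 2853 of 5550, 2163 of 4172 and 1411 of 2429.

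The change over time differed between the lines for 3 of the 9 genes, against 4.84% of all genes. Tet2 changed by 0.42 in the Kmt2c-KO line and -0.78 in the double-KO line, a difference of -1.20 ± 0.16 (limma adjusted p 2.6e-05). Dnmt3l changed by 0.18 and -0.82, a difference of -0.99 ± 0.20 (adjusted p 0.0034), and Tet1 by -0.64 and 0.35, a difference of 0.99 ± 0.18 (adjusted p 0.0011). Every one of these kept its call with median-of-ratios scaling and without any 1 library. The line difference thus grew from 8 h to 16 h for Dnmt3l and shrank for Tet1 and Tet2. For Dnmt3a and Dnmt3b, the differences of 0.10 ± 0.14 and 0.35 ± 0.20 were not called (adjusted p 0.77 and 0.38). Kmt2c-KO cells without GRHL2-ERT were not in this test. In them, Tet2 had means of 76.0 CPM at 8 h and 75.2 at 16 h in tamoxifen, so its rise was not seen there.

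**Figure D5:**
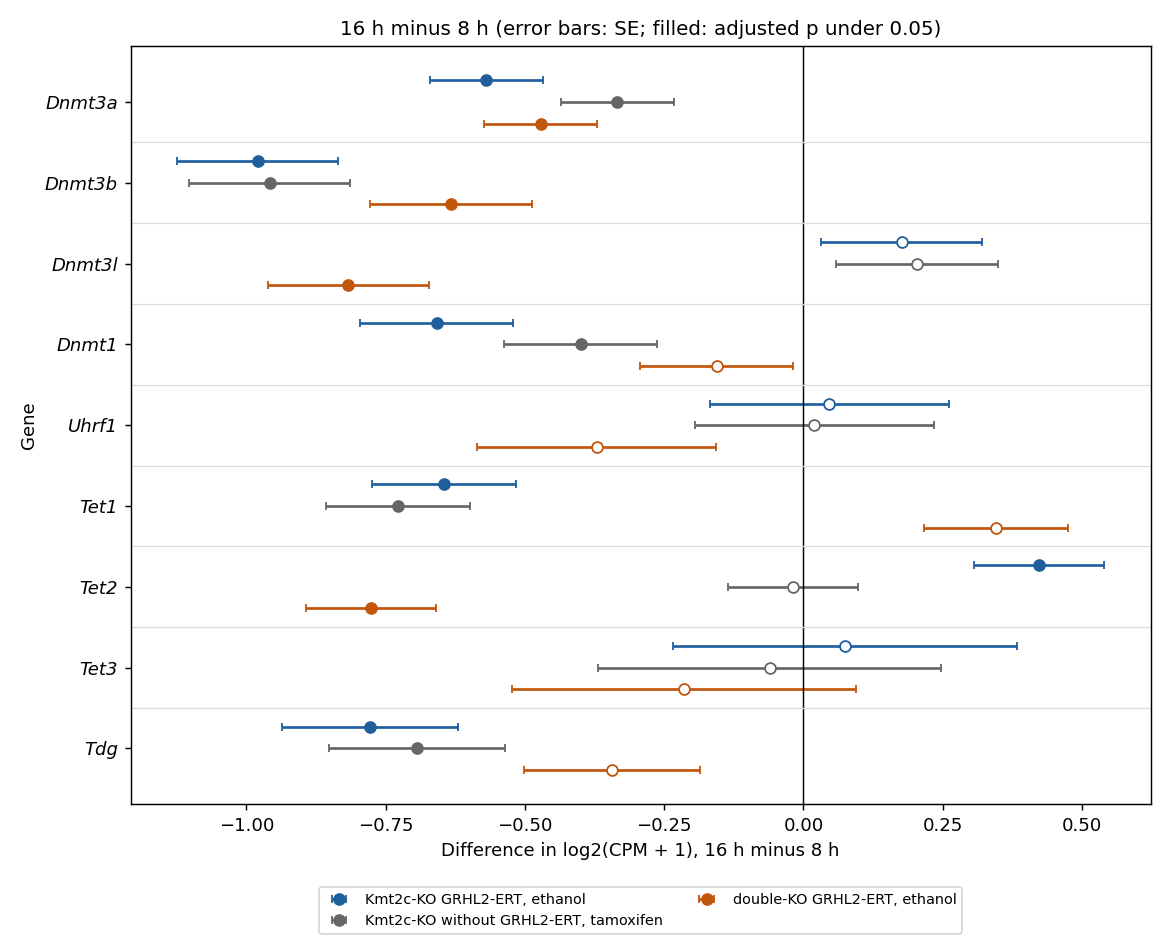
Change from 8 h to 16 h (log2(CPM + 1), linear axis) of the 9 genes in the Kmt2c-KO line in ethanol, in Kmt2c-KO cells without GRHL2-ERT in tamoxifen and in the double-KO line in ethanol; circles are estimates with SE bars, filled where the limma adjusted p was under 0.05. Dnmt3b and Dnmt3a lie below 0 in all 3, and Tet1 and Tet2 lie on opposite sides of 0 in the Kmt2c-KO and double-KO lines.

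Across the 30 libraries the 9 genes did not move as 1 group. The libraries come from 3 lines and 2 times, so pooled correlations mostly set lines apart. Correlations within the 18 Kmt2c-KO and the 12 double-KO libraries are given beside them as descriptions. These still hold the difference between 8 h and 16 h, which cannot be told apart from a batch. Within the Kmt2c-KO libraries, for example, Dnmt1 was at 52.9 to 82.9 CPM at 8 h and 36.6 to 49.9 at 16 h. Dnmt3a and Dnmt3b had a Pearson r of 0.853 over all libraries, 0.614 within Kmt2c-KO and 0.750 within double-KO libraries. Dnmt1 and Tdg had 0.846, 0.902 and 0.735, although Tdg tags are uncertain. Dnmt3l and Tet3 had -0.932 over all libraries, and -0.528 and 0.345 within the lines. Tet1 and Tet2 had -0.847, and -0.303 and -0.390 within the lines.

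Among 6923 other named genes with a mean of at least 10 CPM, the most similar pattern over the 30 libraries was found for each of the 9. For Dnmt3l these were Rex2 (r 0.986, and 0.773 and 0.813 within Kmt2c-KO and double-KO libraries), L1td1 (0.982, 0.867 and 0.749) and Mcf2 (0.981, 0.568 and 0.680). For Tet1 these were Tdrd12 (0.966, 0.846 and 0.818), Ckb (0.964, 0.888 and 0.498) and Wapal (0.962, 0.831 and 0.542). For Tet2, Basp1 came first (0.927), with 0.193 within Kmt2c-KO and 0.939 within double-KO libraries, and for Tet3, Nnat (0.950, 0.637 and -0.122). Agrn came first for Dnmt3b (0.954, 0.916 and 0.738), Tfdp2 for Dnmt3a (0.929, 0.78 and 0.898), Plbd2 for Dnmt1 (0.921, 0.940 and 0.805) and Prdm2 for Tdg (0.969, 0.931 and 0.968). Uhrf1 had the weakest best match, Mreg (0.832, 0.366 and 0.957).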

How the data were processed

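RNA of 30 libraries was measured with a QuantSeq 3' kit and single-end reads, per the labels' protocols. Salmon, DESeq2 1.34.0 and the mm10 build are listed in the submitters' processing notes without the step each served; filters and strand use are not given in the sources used here. The deposited table holds log2 values made by the authors, log2(CPM + 0.124871) from its values, since CPM recovered from it sum to 1000000 in each library; 95.8 to 97.6% of values under 1.5 CPM were whole reads within 0.05 reads. Columns named CKO were read as the GRHL2-ERT line, because they include ethanol libraries, which the labels give only for GRHL2-ERT lines, and columns named CKOwt as cells without it. Here, log2(CPM + 1) was fitted with limma 3.58.1 (R 4.3.3; trend and robust variance, 1 mean per group, 20 residual degrees of freedom) for 17 comparisons, 2 of them, between lines in tamoxifen, added after the data had been seen. Genes with a mean of at least 1 CPM in a group were tested (12414, 14 removed), with Benjamini-Hochberg adjustment over all of them for each comparison, two-sided, called under 0.05. The table held genes at 1 CPM or more in at least 6 libraries. Data were simulated for the tamoxifen response of the Kmt2c-KO line at 8 h (11512 genes, dispersion 0.02, equal means in all other groups). In these the test recovered 49 and 47 of 50 genes changed up and down by 1 on the log2 scale, with 11 false calls. Low genes were not among those changed, and the wider spread of the libraries that stood apart was not simulated. Power for low genes or with that spread is therefore not shown. The members and lists were chosen with earlier results of these data known. Named list genes were up to 3 per list and comparison with the smallest adjusted p among those called with non-overlapping groups, and examples were taken from these; neighbours were the 3 highest Pearson r (predicted and clone names left out), of which the first is given for 7 genes. Alternatives were the scaling, the pseudocount, the filter, replicate blocks, array weights, only the libraries compared, leaving out each library, and leaving out libraries that stood apart, more than 3 median absolute deviations below the median correlation. The 3' ends were compared with all transcripts by BLAST over 300 bases (at least 90% identity over 100 bases).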

Additional observations from a re-analysis of the deposited data

Results flagged for a closer look

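4 results differed between lines under the same contrast, each by a test of the difference itself (limma). The tamoxifen response of Tet1 at 8 h differed by 0.76 on the log2 scale between the double-KO and the Kmt2c-KO line, with the limits given beside it above. The change from 8 h to 16 h in ethanol differed between these lines by -0.99 for Dnmt3l, by 0.99 for Tet1 and by -1.20 for Tet2.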

How the results depend on the processing

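The 153 values (9 genes in 17 comparisons) were compared by their side of the threshold. With pseudocounts of 0.1 and 5, without the filter and with replicate as a block over all libraries, all 153 kept it. With median-of-ratios scaling 140 did so, with array weights (a fit that stopped before full convergence) 143 and with only the libraries compared 148. No value called in either fit changed direction, and the direction of values called in neither was not compared. Equal replicate numbers did not pair libraries: 1 of 12 same-number pairs correlated above 0.1, and 3 correlated best with their own number. With replicate as a block within line and time, the count called in the difference of tamoxifen responses between lines at 8 h was 0 in place of 1. That count was also 0 with only those libraries and with array weights and 2 with median-of-ratios scaling. With median-of-ratios scaling 3 of 9 genes, in place of 5, were called over time without the transgene. The change of tamoxifen response over time in the Kmt2c-KO line gave 1, in place of 0, with only those libraries and with array weights. GRHL2-ERT against no transgene at 16 h gave 1, in place of 0, with array weights and without the libraries that stood apart, and the difference of time changes between lines gave 5, in place of 3, with array weights. Leaving out 1 library at a time kept 6 calls over time in the Kmt2c-KO line, 4 to 5 in the double-KO line and 4 to 5 without the transgene. It gave 6 to 7 calls between lines in ethanol at 8 h and 7 to 8 at 16 h, and 7 to 8 and 6 to 8 in tamoxifen. It gave 2 for the tamoxifen response of the Kmt2c-KO line at 8 h and 0 at 16 h, and 0 to 2 and 0 for the double-KO line. The difference of responses between lines gave 0 to 4 at 8 h and 0 at 16 h, that between times 0, and that of time changes 3. GRHL2-ERT against no transgene gave 1 at 8 h and 0 to 1 at 16 h. The group of the 3 libraries that stood apart cannot be tested without them. Depth limits Tet3 in the Kmt2c-KO line, where a library held 1 to 46 reads.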

Other observations

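Germline genes that are known to be silenced by promoter methylation split between the lines. Over all tested genes 37.6% were called higher and 11.9% lower at 8 h in ethanol, and 40.0% and 9.96% at 16 h. Of 17 listed and tested in ethanol, 6 were higher and 5 lower in the double-KO line at 8 h and 9 and 4 at 16 h (median log2 difference 0.17 and 0.91, against 0.31 and 0.35 over all genes; 3 and 5, and 7 and 5, with median-of-ratios scaling). Syce1, a component of the meiotic synaptonemal complex, was higher by 1.38 ± 0.16 and 1.46 ± 0.16, whereas Sycp3, of the same complex, was lower by -1.78 ± 0.26 and -1.80 ± 0.26 (limma adjusted p at most 2.4e-06). Over time, 3 of the 17 were called higher and 1 lower in the Kmt2c-KO line in ethanol, against 17.5% and 27.5% of all genes. Without the transgene 3 were higher and 0 lower (10.9% and 25.7%), and in the double-KO line 5 and 0 (8.72% and 12.5%). Dazl, a germ cell RNA-binding protein gene, rose by 1.49 ± 0.25 in the Kmt2c-KO line in ethanol. Without the transgene it rose by 1.49 ± 0.25 in tamoxifen (limma adjusted p 2.9e-05 and 4.5e-05). Dazl was not called over time in the double-KO line, and in ethanol it was called lower there than in the Kmt2c-KO line at both times.

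In the Kmt2c-KO line at 8 h, tamoxifen lowered 3 of 13 genes for de novo targeting and imprint protection beside Dnmt3l and Dnmt3a, where 2.04% of all genes were called lower. Zfp57, which encodes a factor that protects imprints, fell by 0.96 ± 0.26 and Trim28, its corepressor, by 0.50 ± 0.10 (limma adjusted p 0.026 and 0.0034). Against cells without GRHL2-ERT, in a comparison that shares the tamoxifen libraries, they were at -1.19 ± 0.26 and -0.49 ± 0.10 (adjusted p 0.0056 and 0.0037). Dppa4 fell by 0.47 ± 0.13 (limma adjusted p 0.031; 0.060 with median-of-ratios scaling), and against cells without GRHL2-ERT it was not called (-0.25 ± 0.13, adjusted p 0.41). Of 20 S phase genes, 0 were called in that response, and 6 were higher and 3 lower between lines at 8 h in ethanol (median 0.21), where 37.6% of all genes were called higher and 11.9% lower, against 1 and 7 with median-of-ratios scaling. Of 10 methyl donor and 2-oxoglutarate enzymes, 6 were higher and 1 lower between lines at 8 h and 5 and 0 at 16 h, where 40.0% of all genes were called higher and 9.96% lower, against 2 and 1 and 2 and 4 with that scaling. The medians of this list, 0.33 and 0.42, lay close to those of all genes, 0.31 and 0.35.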
